A study of Mus musculus with 6 samples.

Results

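The cytosolic ribosomal protein genes are the genes for the proteins of the ribosome that translates messenger RNA in the cytoplasm. They were taken as the protein-coding mouse genes with the symbol Rpl or Rps followed by a digit, together with Rplp0, Rplp1, Rplp2 and Rpsa, leaving out pseudogene, kinase (Rps6k) and Riken-style names. The rule found 86 genes among 56691 gene rows. Of these, 43 encode proteins of the large subunit, 31 proteins of the small subunit and 3 the P stalk, and these 77 are called core members here. The other 9 are paralogs or genes that only share the naming style: Rps27l, Rps27rt, Rps19bp1, Rpl3l, Rpl7l1, Rpl10l, Rpl22l1, Rpl36al and Rpl39l. The symbol rule leaves out genes with other names, such as Rack1 and Fau, whose products are or contain ribosomal proteins.

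The study asked how antipsychotic drugs act on the uptake of dead cells by macrophages, as its title puts it. Bone marrow-derived macrophages, which are cells grown out of bone marrow in culture, came from 3 mice lettered a, b and c. On day 6 the cells received 2 µM thiothixene, an antipsychotic that blocks dopamine receptors, or DMSO, the solvent, for 24 h. Each mouse gave 1 thiothixene and 1 DMSO library of total RNA, so that each group held 3 libraries. Libraries are named by treatment and mouse (DMSO-b, thiothixene-a), and values of a group are given in the order of mice a, b and c. Strain, sex and age of the mice are not given in the labels, and no genetic change is named for either group.

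A ribosome holds nearly every ribosomal protein in a single copy, and the genes are therefore expressed at similar levels in most cells. Their messenger RNAs begin with a C followed by a run of pyrimidines, the terminal oligopyrimidine or TOP motif, through which mTORC1 and the RNA-binding protein LARP1 control their translation. They are also among the shortest and most abundant messages of a cell.

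The short window around the annotated start is where that run is sought. A run of at least 6 pyrimidines opening with C, lying from 20 bases before to 50 bases after the RefSeq start (GRCm38.p6), was found in 55 of the 66 members with a promoter entry, 83.3%, against 48.5% of all genes with an entry. The windows below belong to members that stood at opposite ends of the libraries described further on, and to the paralogs Rps27l and Rpl39l. Each is 30 bases, 5′ to 3′ on the gene's own strand, with the run in capitals.
Rps6 at chr4:86857347-86857376 (minus strand): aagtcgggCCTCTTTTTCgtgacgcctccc
Rps26 at chr10:128626481-128626510 (minus strand): cgccggatCCTCTTTCgagtcttggctcca
Rps12 at chr10:23787180-23787209 (minus strand): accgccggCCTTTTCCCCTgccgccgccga
Rplp2 at chr7:141447639-141447668 (plus strand): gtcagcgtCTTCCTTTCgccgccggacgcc
Rps15 at chr10:80292448-80292477 (plus strand): agcccgtaCTTCCTTTTCCgagtaaccgcc
Rps27l at chr9:66946066-66946095 (plus strand): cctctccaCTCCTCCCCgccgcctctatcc
Rpl39l at chr16:10170213-10170242 (plus strand): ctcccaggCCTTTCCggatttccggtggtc
The windows were drawn from members in which a run was found. Counted in bases from the annotated start, with negative values before it, the runs opened at these places. They were -1 for Rps6, 5 for Rps26, 9 for Rps12, -4 for Rplp2, 26 for Rps15, -12 for Rps27l and -7 for Rpl39l. A run is a match of letters and not a measured start site.

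Counts assigned to genes ranged from 10472349 in DMSO-b to 22297520 in DMSO-c. Reads not aligned made up 4.98% of thiothixene-a and 4.52% of DMSO-c, against 1.85% to 2.31% of the others. Ambiguous reads (3.02%) and reads with several alignments (4.07%) were highest in DMSO-b. The summed level of the 10 macrophage markers, such as Lyz2, ran from 11850 to 13830 CPM (a gene's counts scaled to the library's total over genes) with thiothixene and from 11620 to 16210 with DMSO. T and NK cell markers reached at most 0.469 CPM in sum, B cell markers 10.1 CPM and erythroid markers 4.57 CPM. Summed stromal and fibroblast markers stood at 58.8, 109.9 and 298.9 CPM with thiothixene and at 104.9, 118.5 and 182.1 CPM with DMSO. Neutrophil markers are given further on. In these bulk samples, fewer cells of a type and less RNA per cell cannot be told apart.

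Not every member could be measured. Rpl24 and Rpl10l had no count in any library, which allows at most 0.286 CPM in DMSO-b and 0.135 to 0.162 CPM in the others, from counting error alone. Rpl36al, Rps10 and Rpl3l had 6 or fewer counts each over the 6 libraries. These 5 did not pass the expression filter, and 81 members, 75 of them core, were tested. Rpl24 and Rps10 encode proteins found in ordinary ribosomes. Annotated exons of other genes on the same strand cover 47.0% of the exon bases of Rpl24 (Gm28037), 20.6% of Rps10 (RPS10-NUDT3) and 24.5% of Rpl36al (Gm49383). The row of Gm49383 held 926 to 2384 counts per library, but that of Gm28037 held only 2 to 62 and that of RPS10-NUDT3 0 to 6. Rpl13a, a large subunit protein, held 74 to 229 counts per library, and Gm45713, Mir5121 and Snord33 together cover 35.4% of its exon bases. The row of Gm45713 held 0 to 1 counts per library. Whether overlap, shared sequence or the counting rule emptied these rows was not tested.

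Levels between members were compared per length, as CPM divided by the summed length of a gene's annotated exons in kilobases (RPKM). Over the 6 libraries, Rplp1, a P stalk protein that helps recruit elongation factors, was highest at 1564 ± 1412 RPKM (SD, n = 6). Its stalk partner Rplp0 followed at 610 ± 278 RPKM (SD, n = 6), and Rplp2 stood at 168 ± 156 RPKM (SD, n = 6). The SD of Rplp1 is nearly as large as its mean. Within libraries Rplp1 stood above Rplp0 in all but DMSO-c, where it was at 417 against 441 RPKM. The means of Rplp1 and Rplp2 rest in large part on DMSO-b, and without it they were 1017 ± 501 and 106 ± 48.1 RPKM (SD, n = 5), beside 498 ± 44.7 for Rplp0.

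In the large subunit, Rpl36 (562 ± 516 RPKM), Rpl4 (411 ± 100) and Rpl32 (409 ± 248; SD, n = 6 for each) were highest. Rpl13a (3.35 ± 1.90) and Rpl35a (50.5 ± 23.2) were the lowest detected core members. In the small subunit, Rps3a1 (548 ± 192), Rps2 (494 ± 235) and Rps15 (472 ± 441) led, and Rps15a (53.6 ± 24.4) was the lowest that passed the filter. Without DMSO-b, Rpl36 stood at 357 ± 140 RPKM, below Rpl4 at 376 ± 60.0, and Rps15 at 300.2 ± 145, below Rps26 at 331 ± 118 and Rps4x at 325 ± 52.6 (SD, n = 5 for each). None of the neighbours in these leading groups kept the same order in every library. The lower and upper quartiles of the 75 tested core members were 115 and 288 RPKM, and 53 of them lay within 2-fold of the median, 195 RPKM.

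The order depended on the length used. With the length of the principal transcript in place of all exons, a choice made after the values were seen, 69 of 75 lay within 2-fold of the core median, 485 RPKM, and 5 of the 10 leading members kept a place among the first 10. Rps15a stood at 525 RPKM, Rplp2 at 826, Rps27 at 489 and its paralog Rps27l at 230 RPKM on that scale. On the exon scale the paralog Rps27l stood at 140 ± 49.6 RPKM beside 162 ± 115 for Rps27, a small subunit zinc finger protein. Their order on the exon scale changed between libraries, with Rps27l the higher in thiothixene-a and DMSO-c. Their order within libraries per principal transcript was not compared. On the exon scale Rpl7l1 (24.2 ± 4.87 RPKM), Rpl22l1 (10.1 ± 6.35) and Rpl39l (0.799 ± 0.906) were lower than Rpl7 (185 ± 57.0), Rpl22 (68.3 ± 23.2) and Rpl39 (116 ± 43.4) in these libraries.

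**Figure D1:**
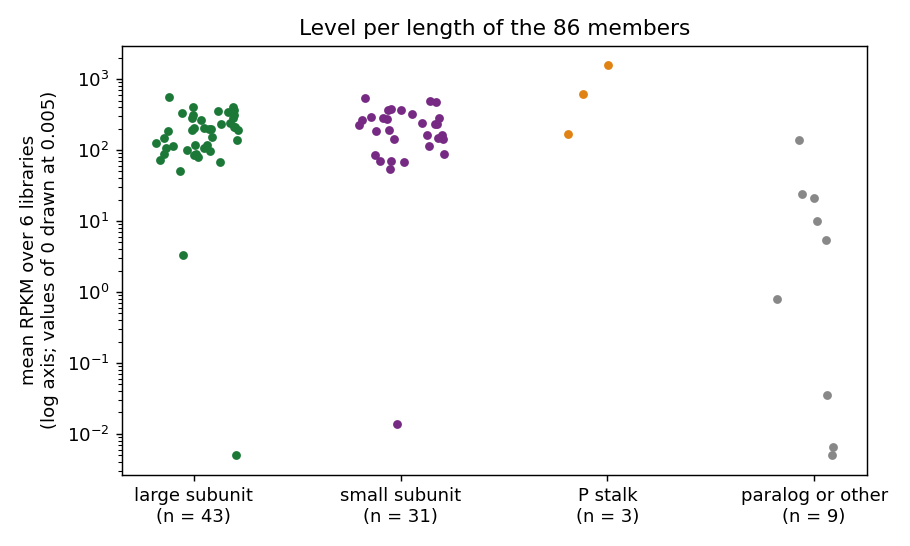
Mean level per length over 6 libraries (RPKM, log axis) of each of the 86 members, by class; values of 0 are drawn at the bottom. Most core members lie within 2-fold of their median, 195 RPKM, and Rplp1 is highest at 1564 RPKM.

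Sequence shared between members and other genes limits some of these rows. At least one window of 100 bases in the principal transcript also occurs in another gene's transcript for 76 of the 86 members, and the median share of such windows was 39.9%. Rps27rt, a single-exon copy of Rps27, shares 89.5% of its windows with other genes, as the first bases of the 2 genes show. The bases in capitals are common to both.
Rps27 at chr3:90213619-90213648 (minus strand): cCTTTCCGGCGGTGACGACCTCCCTACGAG
Rps27rt at chr9:114982710-114982739 (minus strand): CTTTCCGGCGGTGACGACCTCCCTACGAGa
A run of 29 of the 30 bases is identical. The row of Rps27rt stood at 0.691 to 5.92 CPM against 68.4 to 401 CPM for Rps27. Rps27 itself shares 98.4% of its windows with other genes, so both rows are uncertain, as is the comparison of Rps27 with Rps27l above.

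The members together took 2.09%, 2.56% and 2.48% of gene counts in the 3 thiothixene libraries. In the DMSO libraries they took 2.24%, 5.93% and 2.22%. DMSO-b stood apart at 2.31-fold the next highest library, and the other 5 libraries lay between 2.09% and 2.56%. The group means were 2.38 ± 0.252% with thiothixene and 3.46 ± 2.14% with DMSO (SD, n = 3 each), and the groups overlapped. Without DMSO-b the mean of the other DMSO libraries was 2.23%, and the difference between the groups changed from -1.08 to 0.151 percentage points. Within mice, thiothixene minus DMSO was -0.146 points in mouse a, -3.36 in mouse b and 0.264 in mouse c.

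**Figure D2:**
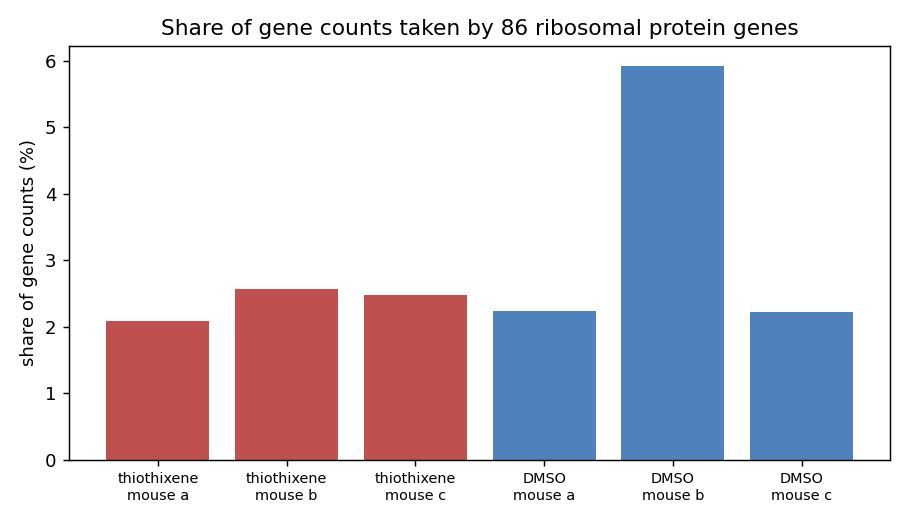
Share of all gene counts (%, vertical axis) taken by the 86 members in each of the 6 libraries, red for thiothixene and blue for DMSO. DMSO-b reaches 5.93% and the other 5 lie between 2.09% and 2.56%.

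Nearly the whole set was highest in that library. Among the 81 tested members, 80 had their highest level in DMSO-b, against 33.9% of all 14856 tested genes. The exception was Rps6, the small subunit protein phosphorylated by S6 kinases, which was highest in DMSO-c. Relative to each gene's mean log2 CPM over the 6 libraries, here with TMM scaling (a correction for composition between libraries), the median member stood 1.40 higher in DMSO-b. In the thiothixene group the median deviations were -0.51, 0.01 and -0.09, and in DMSO-a and DMSO-c they were -0.32 and -0.43. Over all tested genes the median deviation in DMSO-b was 0.0095.

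In CPM, DMSO-b exceeded the next highest library by a median of 2.14-fold over the tested members, and by 1.5-fold to 3-fold in 68 of the 81. Core members ran from 0.682-fold (Rps6) to 3.07-fold (Rpl36). Members are short, with a median principal transcript of 740 bases against 2776 for all tested genes, and across genes short transcripts were higher in this library (Spearman's rho of the deviation with length -0.548 over 11938 genes, a description). An alternative added after seeing the data took out of each library the trends with summed exon length and with GC content of the longest transcript. The median member then deviated by 1.17 log2 units in DMSO-b, and 78 members were highest in it. Summed exon length is not the principal transcript length above, and whether the trend with the latter was taken out was not tested. Summed neutrophil markers were also highest in DMSO-b, at 736.5 CPM against 350 to 461.5 CPM in the other libraries. So were summed macrophage markers, at 16210 CPM against 11620 to 15350 CPM. All 9 tested neutrophil markers and 7 of 9 tested macrophage markers had an estimate below 0, against 54.7% of all tested genes. Of the 5 tested stromal and fibroblast markers, 2 were below 0 and 3 above. These estimates use all 6 libraries, DMSO-b among them. The part of these cell types in the members' levels was not tested.

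**Figure D3:**
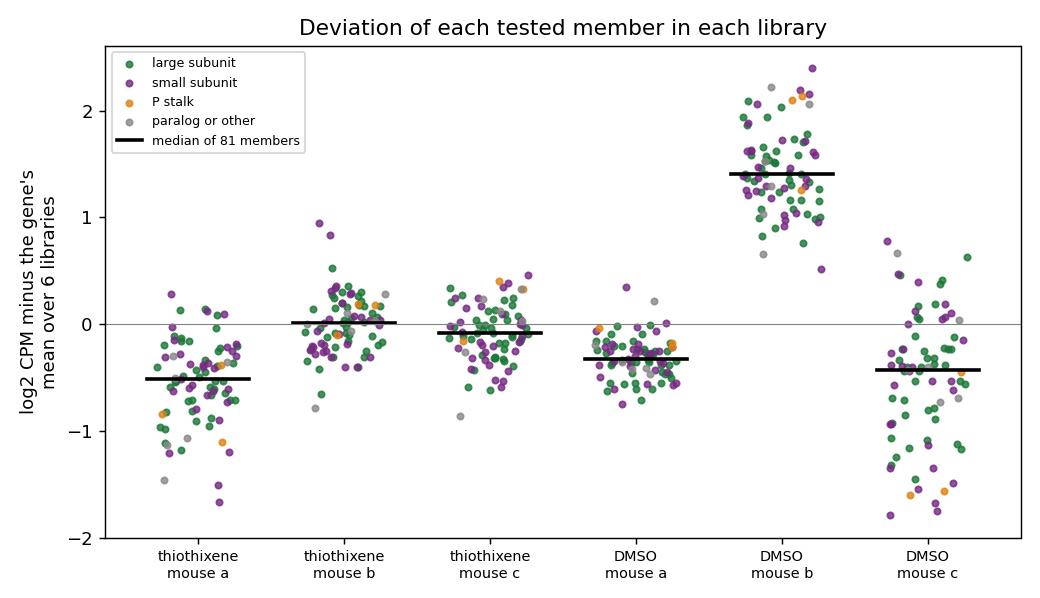
Deviation of log2 CPM from the gene's mean over 6 libraries (vertical axis) for each of the 81 tested members in each library, with black bars at the medians and colours for the class. The whole cloud lies above 0 in DMSO-b, with a median of 1.40, and the cloud is widest in DMSO-c.

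The spread of the members between libraries was larger than that of most genes. The median SD of log2 CPM over the 6 libraries was 0.727 for the tested members and 0.532 for all tested genes, and 73 of 81 members lay above the latter. Without DMSO-b it was 0.322 for the members and 0.390 for all genes. Among core members the SD over 6 libraries ran from 0.415 to 1.61.

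Thiothixene against DMSO gave no called member. In edgeR's quasi-likelihood test with Benjamini-Hochberg adjustment, 0 of 81 members passed an adjusted p of 0.05, as did 0% of all tested genes, and the smallest adjusted p of a member was 0.9998. All 81 estimates were below 0, against 54.7% of all tested genes, with a median log2 fold change of -0.67 beside -0.04 for all tested genes. The 95% interval held 0 for 80 of the 81. DESeq2 and limma-voom also called 0 members, but the share of all genes that these fits called is not given here. One member, Rpl39l, had an unadjusted p under 0.05, where 0.841% of all tested genes did so with a lower level and 1.72% in either direction.

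The estimate was below 0 in each class. The medians of the log2 fold change were -0.66 over 42 large subunit members (range -1.10 to -0.39), -0.68 over 30 small subunit members (range -1.02 to -0.46) and -0.93 over the 3 P stalk members. The 6 tested paralogs and others had a median of -0.53 and ran from -2.81 (Rpl39l) to -0.10 (Rpl7l1). These estimates share the 6 libraries and are not independent of each other.

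Rpl39l, a paralog of the exit tunnel protein Rpl39 known from testis, was the single member whose groups did not overlap, a pattern that 2.77% of all tested genes showed in the lower direction. In the higher direction 0 members did so, against 3.88% of all genes. It had 2, 4 and 4 counts in the 3 thiothixene libraries and 12, 22 and 18 counts in the DMSO libraries. All thiothixene values lay below all DMSO values, with a log2 fold change of -2.81 (SE 0.98, 95% interval -5.05 to -0.57). The unadjusted p was 0.0199 and the adjusted p 0.9998 in edgeR's quasi-likelihood test. Its parent gene Rpl39 stood at 128, 182 and 128 CPM with thiothixene and at 127, 285 and 143 CPM with DMSO, with overlapping groups and a log2 fold change of -0.45 (SE 0.43). The difference between the paralogs was not tested.

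Rplp1 and Rplp2 of the P stalk varied widely between libraries. Rplp1 stood at 282, 670 and 782 CPM in the 3 thiothixene libraries and at 597, 2144 and 208 CPM in the DMSO libraries. Rplp2 stood at 151, 297 and 330 CPM and at 235, 983 and 90.2 CPM in the same order. For both, the DMSO group held the highest and the lowest library, so that the groups overlapped. The log2 fold changes were -0.93 for each, with SE 0.82 for Rplp1 and 0.83 for Rplp2. Rplp0, which anchors the stalk to the large subunit, stood at 760, 890 and 861 CPM with thiothixene and 886, 1943 and 732 CPM with DMSO. Its SE was smaller, with a log2 fold change of -0.63 (SE 0.46).

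In the large subunit, Rpl5 and Rpl11 form a particle with 5S ribosomal RNA and bind MDM2 when ribosome assembly is disturbed. Rpl5 stood at 350, 325 and 294 CPM in the 3 thiothixene libraries and at 297, 636 and 403 CPM with DMSO. Rpl11 stood at 245, 317 and 336 CPM and at 260, 833 and 274 CPM. The groups overlapped for both, and both peaked in DMSO-b. The log2 fold changes were -0.56 (SE 0.38) and -0.74 (SE 0.54). Rpl13a, whose product also takes part in silencing of inflammatory messages in myeloid cells, had the lowest core estimate, -1.10 (SE 0.53). Its levels were 3.95, 3.99 and 6.22 CPM with thiothixene and 4.45, 13.7 and 10.3 CPM with DMSO, which overlap.

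In the small subunit, Rps19 is the gene most often altered in Diamond-Blackfan anaemia. Rps19 stood at 104, 285 and 321 CPM in the 3 thiothixene libraries and at 245, 903 and 72.2 CPM with DMSO. Rpsa, the laminin receptor protein of the small subunit, stood at 800, 822 and 827 CPM and at 858, 2229 and 687 CPM. Rps27a, made as a fusion with ubiquitin, stood at 446, 333 and 338 CPM and at 313, 846 and 522 CPM. All 3 had overlapping groups and were highest in DMSO-b, with log2 fold changes of -0.95 (SE 0.87), -0.76 (SE 0.51) and -0.70 (SE 0.44).

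**Figure D4:**
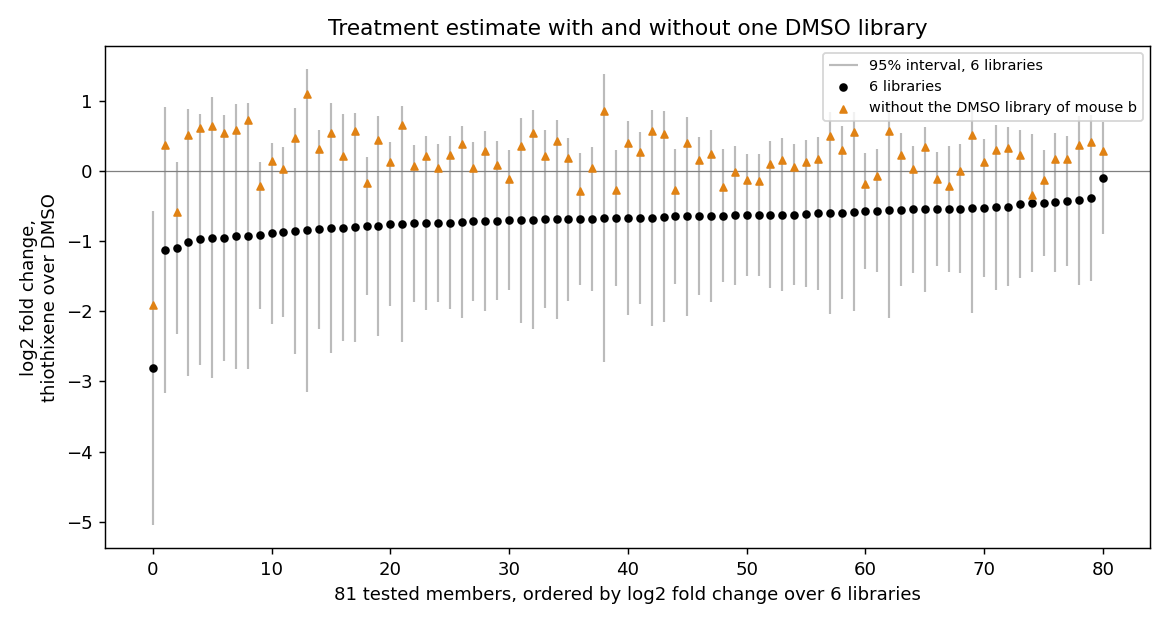
Log2 fold change of thiothixene over DMSO (vertical axis) of the 81 tested members, ordered by the estimate from 6 libraries (black points, grey 95% intervals), beside the estimate without DMSO-b (orange triangles). All 81 black points lie below 0 and 62 of the triangles lie above it.

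The direction of the estimate rested on 1 library. Without DMSO-b, 62 of 81 members were above 0, against 51.4% of all tested genes, the median log2 fold change was 0.22, and 0 members (0% of all genes) were called. Within mice, thiothixene was lower in 54 of 81 members in mouse a (median log2 difference -0.14), in 81 of 81 in mouse b (median -1.40) and in 23 of 81 in mouse c (median 0.33). Rpl13a, Rpl36a, Rpl38 and Rpl39l were lower in all 3 mice, which is 4 of 81 members against 6.82% of all tested genes, and 0 members were higher in all 3. Rpl38 was named after its values were seen. With limma-voom and library quality weights, added after the data were seen, 62 of 81 were above 0 (51.9% of all genes) and 0 were called (0.168% of all genes). With the mouse as a replicate block, 0 members were called and the median was -0.41. The share of all genes called in that fit is not given here.

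A further fit left out thiothixene-a, DMSO-b and DMSO-c, which stand apart, a choice made after the data were seen. The median member was high in DMSO-b and low in thiothixene-a and DMSO-c (deviations above), so leaving them out bears on the direction itself. The fit keeps thiothixene-b, thiothixene-c and DMSO-a, so that the DMSO group is 1 library and treatment and mouse cannot be told apart. In it 77 of 81 members were above 0, against 51.1% of all tested genes, with a median log2 fold change of 0.30, and 22 passed the adjusted threshold, all higher, against 4.02% of all tested genes. Because of how the libraries were chosen, this count is given as a value of that fit and supports no direction of the treatment.

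The members also differed in which libraries favoured them. Each core member's deviation was set against the median of its library, over 74 core members, leaving out Rpl13a for its few counts. Rps29, a small subunit zinc-binding protein, and Rps6 show the extremes, and Rps29, Rps28, Rps26 and Rps12 were named after their values were seen. Rps29 stood at 41.0, 244 and 166 CPM in the 3 thiothixene libraries and at 109, 567 and 38.1 CPM with DMSO. Rps6 stood at 522, 336 and 290 CPM and at 259, 508 and 745 CPM. Rps29 was thus lowest in thiothixene-a and DMSO-c, while Rps6 was highest in DMSO-c.

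Other members took one side or the other. Rps15, a small subunit protein near the decoding site, went with Rps29, at 99.8, 275 and 262 CPM with thiothixene and 226, 840 and 82.3 CPM with DMSO. Rps28 did so too, at 31.4, 155 and 111 CPM and at 86.4, 309 and 28.3 CPM. Rps26, which lies at the exit channel of the messenger RNA, and Rps12 were highest in DMSO-b, followed by DMSO-c and thiothixene-a. Rps26 stood at 611, 410 and 376 CPM and at 371, 894 and 786 CPM, and Rps12 at 615, 450 and 373 CPM and at 394, 935 and 767 CPM. Thiothixene-a and DMSO-c are of opposite treatment and of different mice.

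This order ran with base composition and, less closely, with transcript length. Over the 74 core members, Spearman's rho between the deviation and GC content was -0.548 in thiothixene-a and -0.616 in DMSO-c. In thiothixene-b, thiothixene-c, DMSO-a and DMSO-b it was 0.472, 0.613, 0.542 and 0.565. Over all 11938 tested genes with a principal transcript the same libraries gave -0.581 and -0.678, and 0.407, 0.464, 0.187 and 0.525. The pattern with GC content was thus present across all genes. With principal transcript length, rho over the 74 core members was 0.381 in thiothixene-a and 0.267 in DMSO-c. In thiothixene-b, thiothixene-c, DMSO-a and DMSO-b it was -0.42, -0.212, 0.0421 and -0.397. Over all tested genes, rho with length was 0.307 in thiothixene-a and 0.288 in DMSO-c. In the other libraries, in the same order, it was 0.0626, 0.0719, 0.226 and -0.548. The sign thus differed from that of the members in thiothixene-b and thiothixene-c. These are descriptions, since the points share libraries and the 6 deviations of a gene sum to 0. Thiothixene-a and DMSO-c had the highest shares of reads not aligned, and the part of that in the members' levels was not tested.

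**Figure D5:**
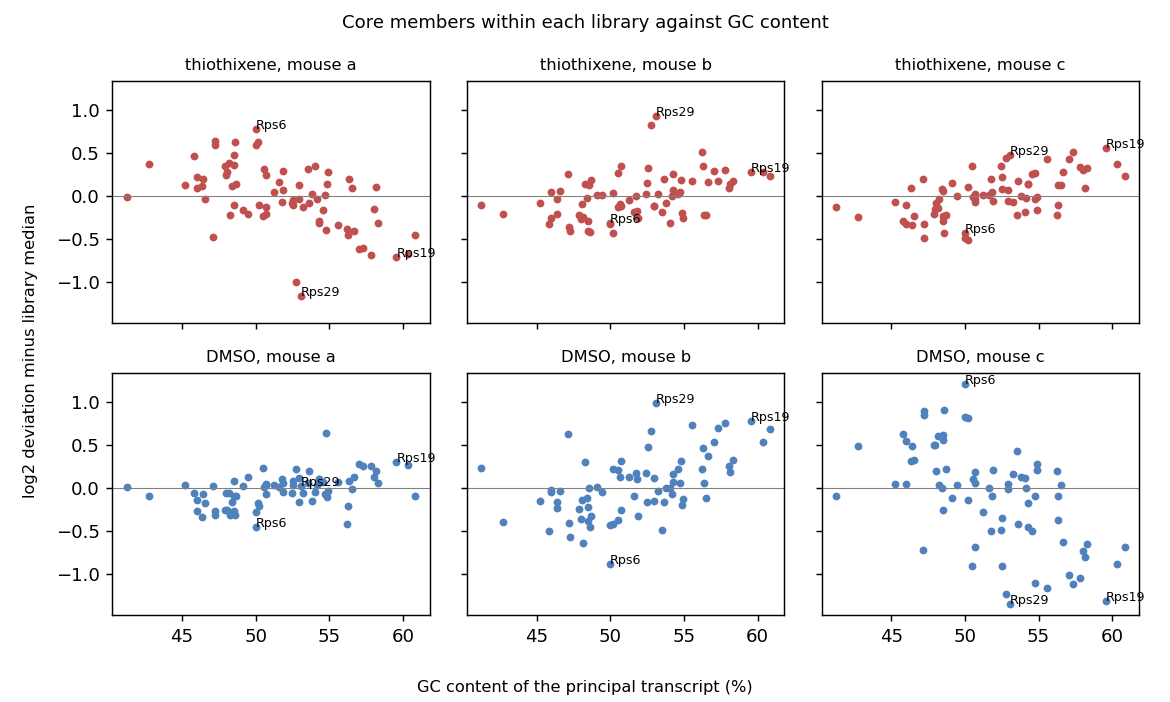
Deviation of 74 core members within each library, minus the library's median (log2, vertical axis), against the GC content of the principal transcript (%, horizontal axis), in 1 panel per library. The slope is negative in thiothixene-a and DMSO-c (rho -0.548 and -0.616) and positive in the other 4.

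Other gene groups of translation were read beside the members. Rack1 and Fau, outside the symbol rule, followed the members, both highest in DMSO-b, with log2 fold changes of -0.54 and -0.80. Of the 19 translation factors and other TOP messages, 0 were called, against 0% of all tested genes. All 19 were below 0, against 54.7% of all tested genes, with a median log2 fold change of -0.40. In this list 14 were highest in DMSO-b, against 33.9% of all tested genes. Eef1a1, the elongation factor that brings aminoacyl-tRNA, stood at 4609, 4427 and 4407 CPM with thiothixene and at 4581, 5388 and 5013 CPM with DMSO. The groups overlapped, and the highest library was DMSO-b, as for the members.

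Of the 75 tested mitochondrial ribosomal protein genes, 71 were highest in DMSO-b, with a median deviation of 0.92 there, 8 were above 0 and 0 were called. The higher level in that library was thus also present in genes of the mitochondrial ribosome. Of 37 ribosome biogenesis genes, 17 were above 0 (median -0.02) and 17 were highest in that library, and of 17 genes of mTORC1 and TOP control, 11 were above 0 (median 0.05) and 4 were highest there. In these lists 0 genes were called, as were 0% of all tested genes. Below 0 were 67 mitochondrial ribosomal, 20 biogenesis and 6 mTORC1 and TOP control genes, against 54.7% of all tested genes. Of all tested genes, 33.9% were highest in DMSO-b. Larp1, whose product binds the TOP motif, stood at 179, 203 and 228 CPM with thiothixene and at 184, 110 and 147 CPM with DMSO. It was lowest in DMSO-b, where the median deviation of its list was 0.0296. A relation between Larp1 and the members was not tested.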

How the data were processed

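For each of 6 libraries the authors deposited raw counts by gene, with 56691 gene rows and rows naming no gene. The submitters' processing notes list STAR 2.7.11b, Trim Galore 0.6.10, FastQC 0.11.8 and DESeq2 1.44, and the mm10 build, without roles. Neither a counting program nor its strand mode is named, nor is an annotation version (not given in the sources used here), so antisense and overlapping genes are uncertain. Rows naming no gene stayed out of library sizes and tests. Of those, reads outside any gene were 43.07% to 44.35% of all rows' counts.

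Identifiers without version were matched to a GENCODE annotation of GRCm38, with 52073 matched and 4618 not. Promoter sequences are RefSeq's (GRCm38.p6), found for 66 members. CPM and RPKM were computed here from gene counts. Log2 deviations used a prior count of 2. The main test was the robust quasi-likelihood test of edgeR 4.0.16 in R 4.3.3 with TMM factors, filterByExpr and treatment alone in the model, and p-values were adjusted by Benjamini-Hochberg over 14856 genes at 0.05. The SE is the absolute log2 fold change over the square root of F. The code was tested on simulated data. Alternatives were RLE, TMM without members, other filters, the mouse block, GC and length offsets, leaving out each library, DESeq2 1.42.0 and limma-voom (limma 3.58.1). The offsets used the summed exon length and the GC content of the longest transcript. Library quality weights, the fit without 3 libraries, the deviations after GC and length trends and the principal transcript length were added after the data were seen.

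The sample titles give a mouse letter, each with 1 library per treatment, and the labels state 3 mice, so the letter pairs libraries from the same animal. Deviations of paired libraries correlated at -0.131, 0.318 and -0.301 in mice a, b and c.

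Members, lists and tests were chosen with earlier results of these data known. Members named with values were the highest and lowest per length in each subunit, the P stalk, the extreme fold changes, a role set and paralog pairs, besides those said to be named later. Intervals for 0 counts cover counting error only.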

Additional observations from a re-analysis of the deposited data

How the results depend on the processing

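Of the members' results, the direction of the treatment estimate depended on the libraries used, and the call of 0 members did not, except in the fit without 3 libraries. With all 6 libraries kept, no alternative but the quality weights turned the median log2 fold change (-0.67), which ran from -0.70 with RLE size factors to -0.38 with limma-voom, and was -0.60 with GC and length offsets and -0.44 when those were joined to the replicate block. With the replicate block it was -0.41 and it changed no call. The share of all genes called is given above for some of these fits only. Leaving out each library in turn gave medians from -0.97 to 0.22, differences in the share from -1.70 to 0.151 percentage points and a median SD from 0.322 to 0.805, the reversed or lowest value each time without DMSO-b, and 0 called members throughout. Over the same fits the named members that turned had log2 fold changes in these ranges: Rpl10 -0.66 to 0.17, Rpl11 -1.06 to 0.22, Rpl15 -0.78 to 0.37, Rpl22l1 -0.89 to 0.51, Rpl3 -0.77 to 0.026, Rpl32 -1.18 to 0.031, Rpl35a -0.86 to 0.22, Rpl36 -1.43 to 0.61, Rpl36a -1.05 to 0.038, Rpl39 -0.70 to 0.17, Rpl7a -0.73 to 0.42, Rpl7l1 -0.30 to 0.29, Rplp0 -0.92 to 0.098, Rplp1 -1.43 to 0.58, Rplp2 -1.42 to 0.73, Rps15 -1.51 to 0.52, Rps19 -1.46 to 0.63, Rps2 -0.89 to 0.17, Rps27 -1.10 to 0.57, Rps27rt -1.55 to 0.36 and Rpsa -1.09 to 0.13. Rpl7l1 turned also without thiothixene-a, at 0.026, and the others turned without DMSO-b alone.

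With library quality weights the median was 0.18, 0 members were called, and these named members turned: Rpl10 0.063, Rpl11 0.20, Rpl15 0.19, Rpl22l1 0.52, Rpl32 0.089, Rpl35a 0.28, Rpl36 0.42, Rpl36a 0.23, Rpl39 0.29, Rpl5 0.016, Rpl7a 0.27, Rpl7l1 0.24, Rplp1 0.19, Rplp2 0.33, Rps15 0.20, Rps19 0.24, Rps2 0.040, Rps27 0.37, Rps27l 0.23, Rps27rt 0.32 and Rps6 0.19. Without the 3 libraries the median was 0.30, 22 members were called, and these turned: Rpl10 0.16, Rpl11 0.39, Rpl13a 0.26, Rpl15 0.25, Rpl22 0.15, Rpl22l1 0.67, Rpl3 0.032, Rpl32 0.27, Rpl35a 0.43, Rpl36 0.58, Rpl36a 0.35, Rpl39 0.35, Rpl4 0.12, Rpl5 0.13, Rpl7 0.0094, Rpl7a 0.36, Rpl7l1 0.31, Rplp0 0.050, Rplp1 0.35, Rplp2 0.48, Rps15 0.31, Rps15a 0.063, Rps19 0.37, Rps2 0.22, Rps27 0.42, Rps27a 0.17, Rps27l 0.35, Rps27rt 0.55, Rps3a1 0.099, Rps4x 0.076, Rps6 0.34 and Rpsa 0.010. That fit rests on a lone DMSO library and on libraries chosen after the members' values were seen. With principal transcript length 5 of the 10 leading members kept their place and with the longest transcript 8, and leaving out each library in turn kept 8 to 10. With 3 libraries a group, the median SE of a tested member was 0.52 on the log2 scale, beside 0.43 for all tested genes.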
